A study of Mus musculus with 12 samples.

Results

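The genes described here are 10 regulators of the integrated stress response: Atf4, Atf5, Ddit3, Atf3, Trib3, Nupr1, Ppp1r15a, Chac1, Sesn2 and Ddit4. They were chosen by name and not by a rule on their readings, but with earlier results of these data known. Each was measured by 1 probe set that carries its symbol alone, out of 23521 such probe sets for 22180 genes. Brown adipose tissue was profiled on 12 whole-transcript arrays, 1 per mouse, with 3 mice in each of 4 groups: KO mice at 4 °C, control mice at 4 °C, KO mice at room temperature and control mice at room temperature. KO mice carried Sel1L f/f alleles and Adiponectin-Cre, and controls were Sel1L f/f littermates, all on C57BL/6J and all fasted for 5 h at the stated temperature. Age and sex are not stated in the labels. The Adiponectin promoter drives Cre in adipocytes, so the other cells of the tissue keep Sel1L. The sample labels name snap-frozen brown adipose tissue, whereas the series text names isolated brown adipocytes, so readings were treated as those of bulk tissue. Values are log2 expression, on which a difference of 1 is a doubling. A change was called where the limma p-value, adjusted over all 23521 probe sets, was under 0.05. Errors of differences are standard errors of the model.

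In the integrated stress response, the kinases PERK, GCN2, HRI and PKR phosphorylate the translation factor eIF2, which lowers general protein synthesis while the mRNAs of ATF4 and a few other factors are translated more. ATF4 and its partners then activate genes for amino acid synthesis and transport, tRNA charging and feedback regulators, and PERK is the kinase that senses misfolded proteins in the endoplasmic reticulum (ER). SEL1L works with the ubiquitin ligase HRD1 in clearing misfolded proteins from the ER, and in brown adipose tissue, the heat-producing fat, mitochondrial stress is also known to induce ATF4 and FGF21.

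Some properties of the arrays bear on every result. Sel1l itself read 6.18, 6.09 and 5.92 in the KO-labelled arrays at room temperature, against 7.37, 6.96 and 7.23 in the controls, a difference of -1.12 ± 0.14 (adjusted p = 0.00114). In the cold, Sel1l gave 6.90, 6.73 and 6.54 in the KO-labelled arrays, against 6.99, 6.69 and 7.04 in the controls (-0.19 ± 0.14, adjusted p = 0.605), so there the targeted gene does not check the label. The genotypes at 4 °C therefore stand as labelled, in every direction given below. The 14 ER chaperone genes described below averaged 9.65 to 9.85 in the KO-labelled arrays and 6.88 to 6.91 in controls at 4 °C. At room temperature, where Sel1l was called lower, they averaged 8.57 to 9.05 and 6.82 to 6.87. The cause of this difference was not tested. The labels of replicate 3 of the room temperature controls conflict: its title and temperature entry give room temperature, but its source name gives 4 °C. The array was analysed by its title. In the fit without it, 7 members were called in the cold response of the controls, and all 7 read lower in that array than in every 4 °C control (Atf3, 3.14, against a lowest 4 °C control of 6.75). That fit called 943 of 23521 probe sets higher and 1196 lower with cold in controls (9.09% in either direction). Where the array stood for all those probe sets was not counted. Markers of brown adipocytes (12 genes) averaged 9.42 to 9.46 in the KO-labelled arrays and 9.64 to 9.70 in controls at 4 °C, without overlap. At room temperature these markers averaged 9.48 to 9.62 in the KO-labelled arrays and 9.39 to 9.65 in controls. By genotype, 2 of the 12 were called lower at 4 °C, Ppargc1a and Pparg, where 2.19% of all probe sets were, and 0 were called at room temperature. Skeletal muscle markers (19 genes) averaged 2.58 to 6.37 in the KO-labelled arrays at 4 °C and 4.67 to 7.66 in the 4 °C controls. At room temperature they averaged 3.00 to 6.05 in the KO-labelled arrays and 6.12 to 7.0 in the controls. With limma 0 of the 19 were called, with median differences of -0.98 at 4 °C and -2.28 at room temperature, where 11 were lower at an unadjusted p under 0.05 (0 at 4 °C). The part of muscle RNA in the members' results was not tested beyond a model that also held the muscle score, which is given where it ended a call. In bulk tissue, fewer cells of a type and less RNA per cell cannot be told apart.

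Upstream sequence was read for all 10 members from the RefSeq promoter table (GRCm38.p6, 250 bases before the annotated start), with 2 starts for Atf5. Motifs were searched on both strands by their letters: the CARE, the C/EBP-ATF element TGATGNAA bound by ATF4 with C/EBP partners, the CRE TGACGTCA bound by ATF and CREB factors, the ER stress element (ERSE), CCAAT and CCACG at a fixed spacing, bound by ATF6 with NF-Y, and the XBP1 and ATF6 element TGACGTGG. The CARE letters occurred in 3 of 10 members, Atf3, Nupr1 and Chac1, and in 3.45% of all 32851 promoters. The CRE letters occurred in Ppp1r15a and in 1.55% of promoters. The other motifs occurred in 0 members and in 0.113% and 0.563% of promoters, in the order named. A match describes the letters only, and a missing match says only that these letters are not in this window. The 4 sequences with a match are printed 5′ to 3′ on the gene's strand, with the match in capitals, since they differ in their readings below: Atf3 and Chac1 were lower in the KO-labelled arrays than in controls at 4 °C, while Nupr1 and Ppp1r15a were higher, Chac1 without passing the test.
Atf3 chr1:191183334-191183583 (- strand): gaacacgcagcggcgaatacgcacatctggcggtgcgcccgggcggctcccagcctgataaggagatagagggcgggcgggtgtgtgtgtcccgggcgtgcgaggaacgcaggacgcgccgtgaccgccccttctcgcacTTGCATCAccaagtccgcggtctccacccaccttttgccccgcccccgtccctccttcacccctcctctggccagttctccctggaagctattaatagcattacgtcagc
Nupr1 chr7:126625471-126625720 (- strand): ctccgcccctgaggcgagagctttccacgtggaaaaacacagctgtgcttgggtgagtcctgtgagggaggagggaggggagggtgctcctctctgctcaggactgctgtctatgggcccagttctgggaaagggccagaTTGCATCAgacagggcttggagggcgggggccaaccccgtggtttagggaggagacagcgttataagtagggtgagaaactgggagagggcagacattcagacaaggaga
Chac1 chr2:119350992-119351241 (+ strand): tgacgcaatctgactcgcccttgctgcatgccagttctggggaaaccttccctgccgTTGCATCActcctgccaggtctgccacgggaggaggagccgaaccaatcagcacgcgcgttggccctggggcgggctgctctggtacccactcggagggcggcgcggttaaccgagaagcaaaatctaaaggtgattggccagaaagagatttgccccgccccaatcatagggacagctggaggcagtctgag
Ppp1r15a chr7:45526269-45526518 (- strand): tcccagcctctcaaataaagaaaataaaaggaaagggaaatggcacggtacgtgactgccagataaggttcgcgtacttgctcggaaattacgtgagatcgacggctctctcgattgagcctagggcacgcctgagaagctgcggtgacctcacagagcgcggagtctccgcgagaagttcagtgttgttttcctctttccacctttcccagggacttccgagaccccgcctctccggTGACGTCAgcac
In Atf3 and Nupr1 the CARE letters lay at -110 to -103 from the start and in Chac1 at -193 to -186, each as the reverse complement TTGCATCA. In Ppp1r15a the CRE lay at -12 to -5.

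At 4 °C, 4 members rose in the KO-labelled arrays (Ddit3, Ppp1r15a, Nupr1 and Atf5) and 1 fell (Atf3), whereas Atf4 itself did not pass. The median difference of the 10 was 0.46, against -0.01 over all probe sets, of which 3.61% were called higher and 2.19% lower (5.8% in either direction). At room temperature 3 members rose (Trib3, Atf5 and Ddit3) and 0 fell, with a median of 0.77 against -0.01 over all probe sets, of which 1.29% were called higher and 0.429% lower (1.72% in either direction). At an unadjusted p under 0.05, limma gave 5 members higher and 2 lower at 4 °C, and 7 higher and 0 lower at room temperature. No share of all probe sets was taken at that unadjusted threshold. Unadjusted counts, here and elsewhere, therefore have no background to be read against. From room temperature to 4 °C, 5 members rose in the KO-labelled arrays (Ppp1r15a, Sesn2, Ddit4, Atf3 and Atf4) and 0 fell, with a median of 0.83, where 4.32% of probe sets were called higher and 4.7% lower (9.03% in all). Centring the array medians turned that split of all probe sets from 47.9% to 58.2% higher among those called. In controls 7 members rose with cold (Atf3, Trib3, Sesn2, Atf4, Ppp1r15a, Chac1 and Atf5) and 0 fell, with a median of 1.32, where 4.85% of probe sets were called higher and 6.23% lower (11.1% in all). Unadjusted, 7 members were higher and 0 lower in the KO-labelled arrays and 8 higher and 0 lower in controls. With the array of conflicting label counted among the 4 °C controls, 0 of the 10 members and 0 of all 23521 probe sets were called in the cold response of the controls, with 8 members higher at an unadjusted p under 0.05 by limma. In that setting the members called were Ddit3 and Ppp1r15a by genotype at 4 °C, Ddit3 and Atf5 by genotype at room temperature, and Ppp1r15a, Sesn2 and Ddit4 with cold in the KO-labelled arrays.

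**Figure D1:**
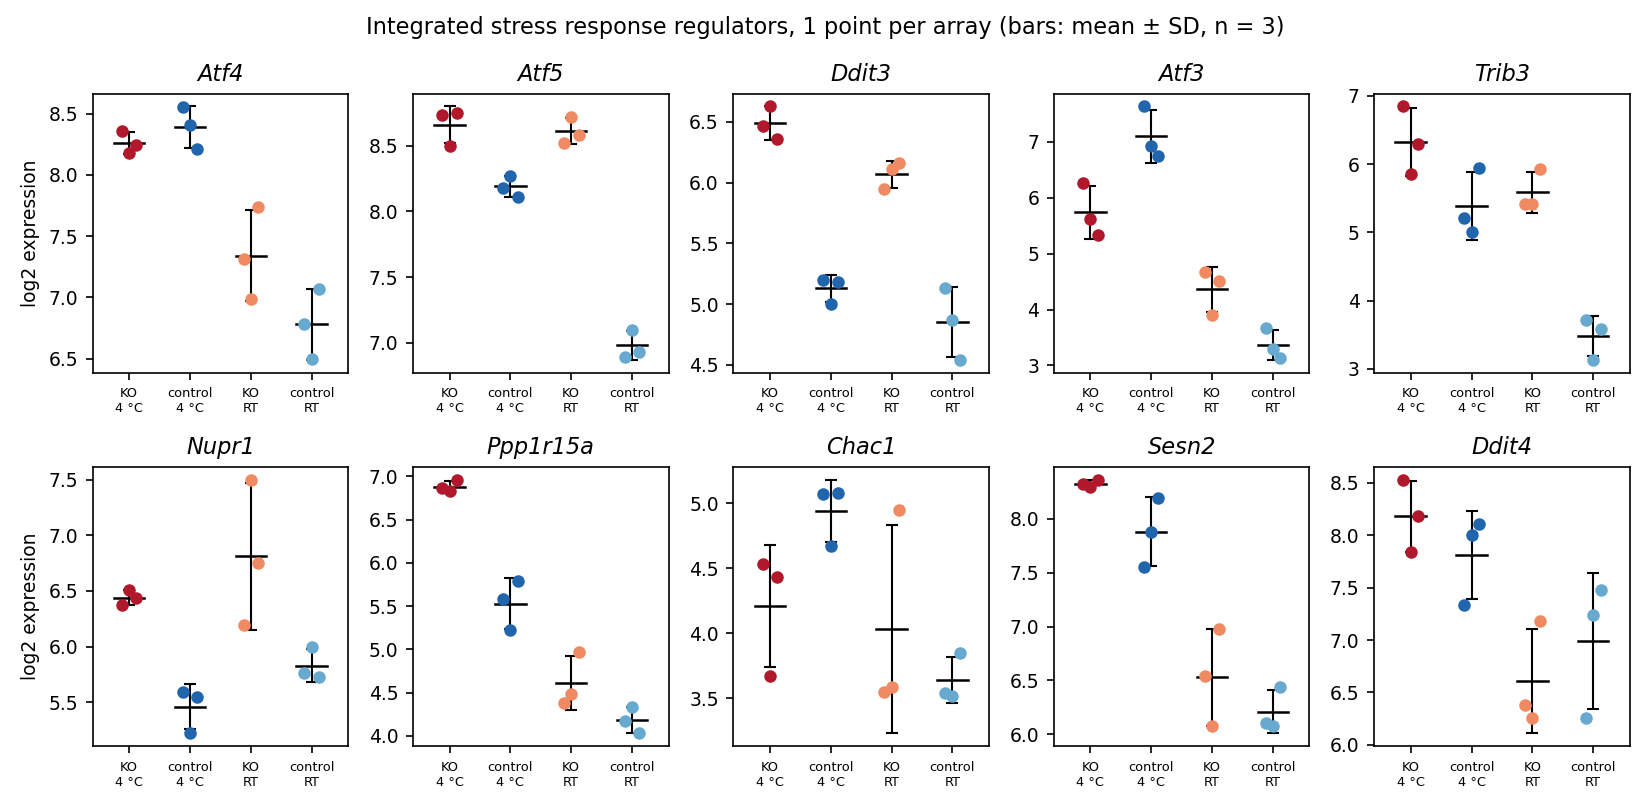
Log2 expression of the 10 regulators, 1 point per array, in KO and control arrays at 4 °C and at room temperature (RT), with the mean and SD of 3 arrays as bars and a separate scale for each gene. Ddit3 lay higher in every KO-labelled array than in every control, Atf5 was low only in the room temperature controls, and Atf3 was highest in the 4 °C controls.

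Atf4 encodes the transcription factor whose translation the pathway controls, so its mRNA is only one layer of its regulation. Its mRNA rose with cold in both genotypes. It read 8.36, 8.18 and 8.24 in the KO-labelled arrays and 8.55, 8.41 and 8.21 in controls at 4 °C, and 7.31, 6.99 and 7.74 in the KO-labelled arrays and 6.78, 6.50 and 7.07 in controls at room temperature. Every 4 °C array lay above every room temperature array, and the genotypes overlapped at both temperatures. The cold response was 0.92 ± 0.19 (1.89-fold, adjusted p = 0.00859) in the KO-labelled arrays and 1.61 ± 0.19 (3.05-fold, adjusted p = 0.000301) in controls. The genotype difference was -0.13 ± 0.19 at 4 °C (95% interval -0.54 to 0.27, adjusted p = 0.822) and 0.56 ± 0.19 at room temperature (0.16 to 0.97, adjusted p = 0.193). In the order of group means, the 4 °C controls and the 4 °C KO-labelled arrays came first without passing a test between them, then the KO-labelled arrays and the controls at room temperature, also without passing one.

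Atf5 encodes a bZIP factor that, like ATF4, is translated under eIF2 phosphorylation and is known for its part in the mitochondrial stress response. It was low in 1 of the 4 groups. Atf5 read 8.73, 8.50 and 8.75 in the KO-labelled arrays and 8.18, 8.27 and 8.11 in controls at 4 °C. At room temperature it read 8.52, 8.72 and 8.58 in the KO-labelled arrays and 6.89, 7.10 and 6.93 in controls. The room temperature controls lay at least a full log2 unit below every other array, and the KO-labelled arrays of both temperatures overlapped. The genotype difference was 0.47 ± 0.11 at 4 °C (1.39-fold, adjusted p = 0.0241) and 1.63 ± 0.11 at room temperature (3.1-fold, adjusted p = 5.65e-06). Cold moved it by 0.05 ± 0.11 in the KO-labelled arrays (95% interval -0.19 to 0.29, adjusted p = 0.87) and by 1.21 ± 0.11 in controls (2.32-fold, adjusted p = 7.13e-05). The call at 4 °C was lost without KO replicate 1 (adjusted p = 0.09), KO replicate 3 (0.0969), control replicate 1 (0.0776) or control replicate 3 (0.0727) of that temperature, with only the 6 arrays compared (0.067), and with the array of conflicting label among the 4 °C controls (0.78, adjusted p = 0.135). The KO-labelled arrays at room temperature also lay above the 4 °C controls, by 0.42 (adjusted p = 0.0284), where 6.7% of all probe sets were called higher and 4.41% lower (11.1% in all).

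Ddit3 encodes CHOP, a C/EBP-family factor induced through PERK and ATF4 and known for its part in cell death under lasting ER stress. It followed the genotype at both temperatures and did not pass the test for cold in either genotype. Ddit3 read 6.47, 6.63 and 6.36 in the KO-labelled arrays and 5.20, 5.00 and 5.18 in controls at 4 °C. It read 5.95, 6.11 and 6.16 in the KO-labelled arrays and 5.13, 4.87 and 4.54 in controls at room temperature. The lowest KO-labelled array was above the highest control over both temperatures. Ddit3 was 2.56-fold higher in the KO-labelled arrays at 4 °C (1.36 ± 0.14, adjusted p = 7.24e-05) and 2.34-fold higher at room temperature (1.22 ± 0.14, adjusted p = 0.000555). Leaving out any single array kept both calls, at adjusted p of at most 0.000719 and 0.00422. The cold response was 0.41 ± 0.14 (adjusted p = 0.106) in the KO-labelled arrays, whose groups did not overlap, and 0.28 ± 0.14 (adjusted p = 0.279) in controls, whose groups did. Of the 4 CHOP target genes of cell death in the fixed list, Bbc3, Pmaip1, Tnfrsf10b and Bcl2l11, none was called in any comparison, and the one with an unadjusted p under 0.05 was Bcl2l11 by genotype at 4 °C (-0.29, adjusted p = 0.295). Bbc3, Pmaip1 and Bcl2l11 were dim, with means of 1.90, 2.51 and 2.53 in the KO-labelled arrays at room temperature. In the controls there the means were 1.98, 2.23 and 2.78, against array medians of 2.03 to 2.09. Missing calls therefore say little about these genes.

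Atf3 encodes a bZIP factor that is induced by ATF4 and, independently of it, as an early response gene of cyclic AMP and growth signals. It rose with cold in both genotypes, and it was the member that fell in the KO-labelled arrays at 4 °C. Atf3 read 6.26, 5.63 and 5.33 in the KO-labelled arrays and 7.64, 6.92 and 6.75 in controls at 4 °C. It read 4.67, 3.91 and 4.51 in the KO-labelled arrays and 3.67, 3.30 and 3.14 in controls at room temperature. The 4 groups did not overlap, and their order ran from the 4 °C controls over the 4 °C KO-labelled arrays and the room temperature KO-labelled arrays to the room temperature controls. Cold raised Atf3 2.6-fold in the KO-labelled arrays (1.38 ± 0.28, adjusted p = 0.00901) and 13.3-fold in controls (3.73 ± 0.28, adjusted p = 2.36e-05). At 4 °C it was 2.57-fold lower in the KO-labelled arrays (-1.36 ± 0.28, adjusted p = 0.0126). That call was lost without KO replicate 2 (adjusted p = 0.0549), KO replicate 3 (0.0633) or control replicate 1 (0.0577) of that temperature. With the array of conflicting label among the 4 °C controls, it was -0.37 (adjusted p = 0.892), and the cold response of the KO-labelled arrays did not pass either (adjusted p = 0.462). At room temperature the difference was 0.99 ± 0.28 (adjusted p = 0.118).

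Trib3 encodes a pseudokinase that is induced by ATF4 and CHOP and feeds back on both. Its mRNA was lowest in the room temperature controls. Trib3 read 6.85, 5.85 and 6.29 in the KO-labelled arrays and 5.21, 5.00 and 5.95 in controls at 4 °C, which overlapped. At room temperature it read 5.42, 5.41 and 5.93 in the KO-labelled arrays and 3.71, 3.13 and 3.59 in controls, which did not. The genotype difference was 2.11 ± 0.28 at room temperature (4.32-fold, adjusted p = 0.00159), against 0.95 ± 0.28 at 4 °C (adjusted p = 0.0771). The room temperature call ended with the array of conflicting label counted at 4 °C (2.17, adjusted p = 0.106). The 4 °C difference passed without KO replicate 2 (adjusted p = 0.048) or control replicate 3 (0.0198) of that temperature. Cold moved Trib3 by 0.74 ± 0.28 in the KO-labelled arrays (adjusted p = 0.143) and raised it 3.76-fold in controls (1.91 ± 0.28, adjusted p = 0.00121). The KO-labelled arrays at room temperature and the controls at 4 °C stood next to each other, with means of 5.59 and 5.39 (adjusted p = 0.775).

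Nupr1 encodes a small chromatin-associated stress protein that acts downstream of ATF4. It was higher in the KO-labelled arrays and was not called for cold. Nupr1 read 6.37, 6.51 and 6.44 in the KO-labelled arrays and 5.59, 5.22 and 5.55 in controls at 4 °C. It read 6.19, 7.50 and 6.75 in the KO-labelled arrays and 5.76, 6.00 and 5.73 in controls at room temperature. The genotypes did not overlap at either temperature, and the room temperature KO-labelled arrays spread most widely. The difference was 0.99 ± 0.25 at 4 °C (1.98-fold, adjusted p = 0.0344) and 0.98 ± 0.25 at room temperature (adjusted p = 0.0709). The 4 °C call was lost without any 1 of the 6 arrays compared: adjusted p was 0.0803, 0.111 and 0.099 without KO replicates 1, 2 and 3, and 0.073, 0.117 and 0.0564 without control replicates 1, 2 and 3. The call also ended with the muscle score in the model (0.91, adjusted p = 0.0646), with the array of conflicting label among the 4 °C controls (0.0504) and with all probe sets tested (0.0769), and the room temperature difference passed without KO replicate 1 (1.29, adjusted p = 0.00627). The cold response was -0.37 ± 0.25 in each genotype (adjusted p = 0.469 in the KO-labelled arrays and 0.428 in controls).

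Ppp1r15a encodes GADD34, the inducible subunit that directs a phosphatase to eIF2 and so closes the loop of the pathway. It rose with cold in both genotypes and was higher still in the KO-labelled arrays at 4 °C. Ppp1r15a read 6.86, 6.83 and 6.96 in the KO-labelled arrays and 5.58, 5.22 and 5.79 in controls at 4 °C. It read 4.38, 4.48 and 4.97 in the KO-labelled arrays and 4.17, 4.34 and 4.04 in controls at room temperature. The 4 groups did not overlap, and the 4 °C KO-labelled arrays lay close together. The genotype difference was 1.35 ± 0.17 at 4 °C (2.55-fold, adjusted p = 0.000339) and 0.43 ± 0.17 at room temperature (95% interval 0.06 to 0.80, adjusted p = 0.298). Cold raised it 4.82-fold in the KO-labelled arrays (2.27 ± 0.17, adjusted p = 1.55e-05) and 2.54-fold in controls (1.35 ± 0.17, adjusted p = 0.000509). Leaving out any single array kept these 3 calls, at adjusted p of at most 0.0027, 0.00019 and 0.00352. Its constitutive counterpart Ppp1r15b differed by -0.09 ± 0.15 at 4 °C (adjusted p = 0.848) and by 0.22 ± 0.15 at room temperature (adjusted p = 0.619).

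Chac1 encodes an enzyme that degrades glutathione and is induced through ATF4. It rose with cold in controls. Chac1 read 4.53, 3.67 and 4.43 in the KO-labelled arrays and 5.07, 4.67 and 5.08 in controls at 4 °C. It read 3.55, 3.59 and 4.95 in the KO-labelled arrays and 3.54, 3.52 and 3.85 in controls at room temperature. The genotypes did not overlap at 4 °C and overlapped at room temperature, where KO replicate 3 stood far above the other KO arrays. The cold response of controls was 1.30 ± 0.33 (2.47-fold, adjusted p = 0.0231), and that of the KO-labelled arrays was 0.18 ± 0.33 (adjusted p = 0.851). Removing control replicate 1 (adjusted p = 0.0782) or 3 (0.0553) at 4 °C, or control replicate 1 (0.0761) or 2 (0.0728) at room temperature, ended the call in controls, as did testing all probe sets (0.0591). The genotype difference was -0.73 ± 0.33 at 4 °C (95% interval -1.44 to -0.02, adjusted p = 0.283) and 0.39 ± 0.33 at room temperature (adjusted p = 0.702).

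Sesn2 and Ddit4 encode Sestrin 2 and REDD1, stress-induced proteins that restrain the growth kinase mTORC1. Sesn2 rose with cold in both genotypes. It read 8.32, 8.29 and 8.36 in the KO-labelled arrays and 7.55, 7.88 and 8.19 in controls at 4 °C, and 6.54, 6.08 and 6.98 in the KO-labelled arrays and 6.11, 6.08 and 6.44 in controls at room temperature. All 4 °C arrays lay above all room temperature arrays. The cold response was 3.46-fold in the KO-labelled arrays (1.79 ± 0.21, adjusted p = 0.000353) and 3.18-fold in controls (1.67 ± 0.21, adjusted p = 0.000451). The genotype difference was 0.45 ± 0.21 at 4 °C (adjusted p = 0.303), without overlap of the groups, and 0.33 ± 0.21 at room temperature (adjusted p = 0.582). Ddit4 read 8.53, 7.84 and 8.18 in the KO-labelled arrays and 7.33, 8.0 and 8.11 in controls at 4 °C. It read 6.38, 6.26 and 7.18 in the KO-labelled arrays and 6.26, 7.24 and 7.48 in controls at room temperature, and the genotypes overlapped at both temperatures. Cold raised Ddit4 2.98-fold in the KO-labelled arrays (1.58 ± 0.33, adjusted p = 0.0103), and the response of controls was 0.82 ± 0.33 (adjusted p = 0.152). Ddit4 was the only member with a lower mean in the KO-labelled arrays at room temperature, at -0.39 ± 0.33 (adjusted p = 0.712).

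**Figure D2:**
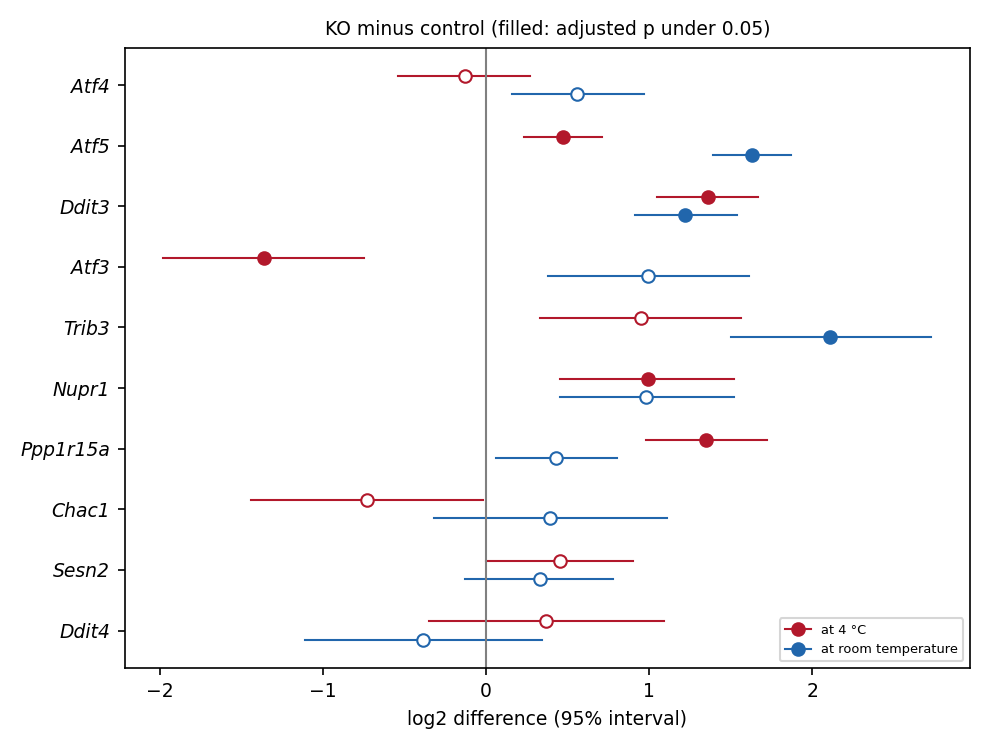
Difference of the KO-labelled arrays minus controls in log2 expression, with its 95% interval, at 4 °C and at room temperature (3 arrays per group). Points are filled where the adjusted p was under 0.05: 5 at 4 °C and 3 at room temperature, with Atf3 the only filled point below 0.

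Whether the cold response differed between genotypes was tested as the cold response of the KO-labelled arrays minus that of the controls. The cold responses and genotype differences share arrays and are not independent of each other. For 2 members the test passed, both in the direction of a smaller rise in the KO-labelled arrays, where 0.0765% of all probe sets were called lower and 0.23% higher (0.306% in either direction). Atf3 differed by -2.36 ± 0.40 (95% interval -3.22 to -1.49, adjusted p = 0.0314) and Atf5 by -1.16 ± 0.16 (-1.50 to -0.82, adjusted p = 0.00893). For Atf5 the controls rose with cold but stayed below every KO-labelled array of either temperature, and the call held without any single array (adjusted p 0.0139 to 0.0346). With the array of conflicting label counted at 4 °C, neither difference passed: Atf5 was -0.83 (adjusted p = 0.721) and Atf3 was -1.25 (adjusted p = 0.897). For Atf3 the KO-labelled arrays lay below the controls at 4 °C and above them at room temperature, and the call was lost without any 1 of 9 arrays, at adjusted p of 0.0569 to 0.101, and held only without KO replicate 1 or control replicate 3 at 4 °C or KO replicate 2 at room temperature. Adding the muscle score to the model ended the Atf3 call too (-2.24, adjusted p = 0.0573), as did testing all probe sets (adjusted p = 0.119). Among the members that did not pass, Trib3 (-1.17, 95% interval -2.03 to -0.30, adjusted p = 0.325), Chac1 (-1.12, adjusted p = 0.448) and Atf4 (-0.69, -1.27 to -0.12, adjusted p = 0.391) had negative differences. Ppp1r15a had a difference of 0.92 (0.40 to 1.45, adjusted p = 0.159) and Ddit4 of 0.76 (adjusted p = 0.665). Ddit3, Sesn2 and Nupr1 lay near 0, at 0.13 (-0.31 to 0.58), 0.12 (-0.52 to 0.77) and 0.00, with adjusted p of 0.898, 0.943 and 0.999. At an unadjusted p under 0.05, limma gave 1 member higher and 5 lower.

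**Figure D3:**
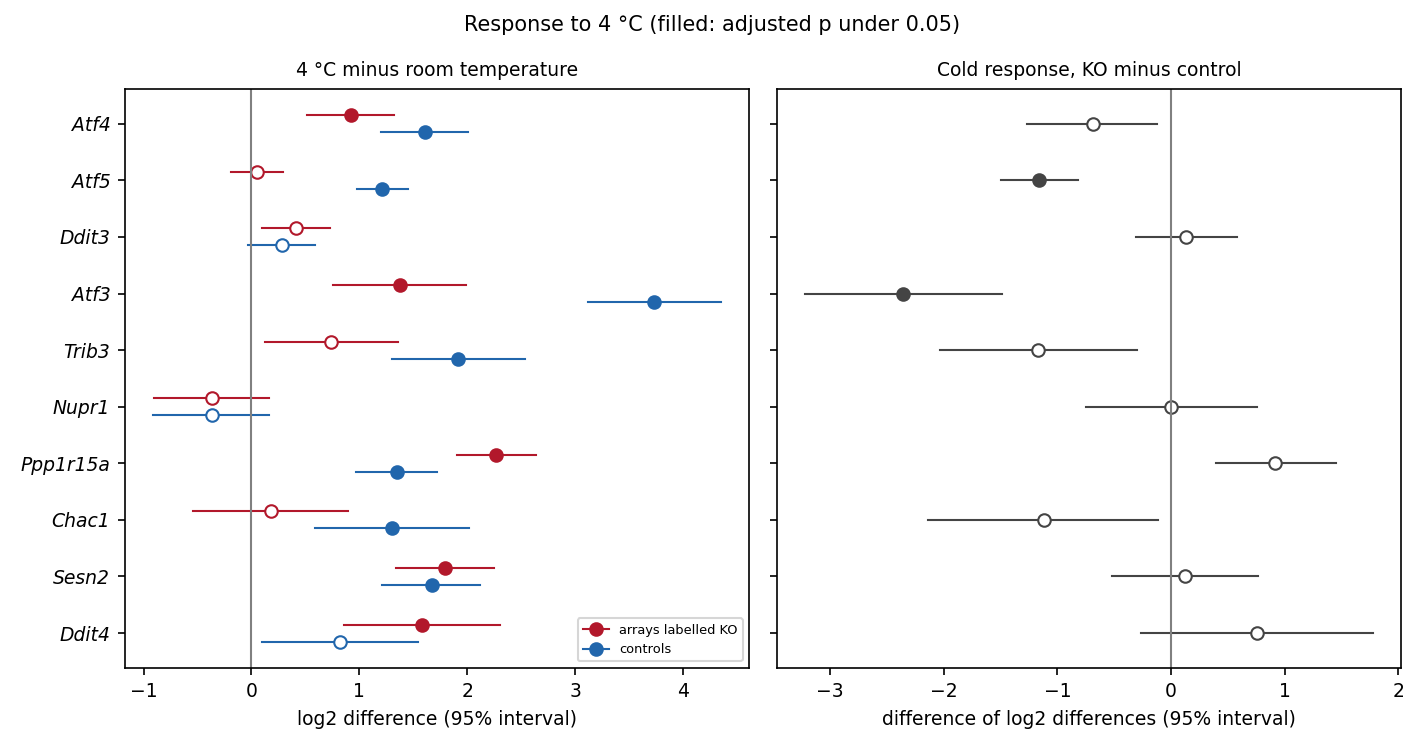
The left panel shows the difference of 4 °C minus room temperature in log2 expression in the KO-labelled arrays and in controls, and the right panel the first minus the second, all with 95% intervals (3 arrays per group, filled where adjusted p was under 0.05). Atf3 and Atf5 are filled on the right, at -2.36 and -1.16.

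Within groups, 2 arrays stood at an end of the range for many members. KO replicate 3 at room temperature was the highest of its group for 7 of 10 members (Atf4, Ddit3, Trib3, Ppp1r15a, Chac1, Sesn2 and Ddit4) and the lowest for 0. KO replicate 2 at 4 °C was the lowest of its group for 7 of 10 and the highest for 2 (Ddit3 and Nupr1). The muscle score was 3.70 in the first of these arrays, inside the range of its group, and 6.37 in the second, the highest of its group. The part of muscle RNA in this ordering was not tested. Ranks over all probe sets were not counted either, so a shift of the whole array cannot be told from one of these genes.

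The genes whose readings followed each member most closely over the 12 arrays were found by the root mean square difference of log2 values after each gene was centred on its own mean. This is a description of these arrays and says nothing of shared control. Ddit3 was followed most closely by Copg1 (0.17), a coat protein of vesicles that return to the ER, and by Mydgf (0.18), a protein of the secretory pathway, while Ddit3 itself varied by 0.69 about its mean on this measure. Atf4 was followed by Ccnl1 (0.20), a cyclin linked to RNA splicing, and Atg101 (0.21), a subunit of the kinase complex that starts autophagy. Atf5 was followed by Eprs (0.26), a tRNA synthetase, and Lrrc8b (0.26), a subunit of volume-regulated anion channels. Ppp1r15a had Ddx28 (0.30), a mitochondrial RNA helicase, and Slc7a5 (0.34), an amino acid transporter, nearest to it, against a variation of its own of 1.05. Nearest to Atf3, which varied by 1.45, was Ppargc1a (0.51), the coactivator of thermogenic and mitochondrial genes, with mean levels of 9.83 in the KO-labelled arrays and 11.25 in controls at 4 °C, and 7.97 in the KO-labelled arrays and 7.84 in controls at room temperature. Sesn2 had Ifrd1 (0.27) and Il4ra (0.31), Nupr1 had Tbc1d31 (0.22) and Spint2 (0.25), and Trib3 had Rnf185 (0.53) and Cyb5r1 (0.55). Ddit4 had Il6ra (0.32) and Gadd45g (0.33), and Chac1 had 4933433H22Rik (0.35) and Irak2 (0.37).

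Among genes upstream of the members (the eIF2 kinases, eIF2, eIF2B and their regulators), 2 of 17 measured rose in the KO-labelled arrays at each temperature and 0 fell, Eif2ak3 and Dnajc3. Over all probe sets 3.61% were called higher at 4 °C and 1.29% at room temperature. Eif2ak3, which encodes PERK, read 6.57, 6.96 and 6.96 in the KO-labelled arrays and 5.57, 5.15 and 5.38 in controls at 4 °C, and 6.38, 6.26 and 6.26 in the KO-labelled arrays and 5.37, 5.55 and 5.38 in controls at room temperature. The genotypes did not overlap, with differences of 1.46 ± 0.14 at 4 °C (adjusted p = 2.5e-05) and 0.87 ± 0.14 at room temperature (adjusted p = 0.00549). Dnajc3 encodes p58IPK, an ER-resident co-chaperone also known as an inhibitor of eIF2 kinases, and is counted again among the 14 ER chaperone genes below. It read 10.70, 10.75 and 10.39 in the KO-labelled arrays and 7.52, 7.60 and 7.21 in controls at 4 °C, a 9-fold difference (3.17 ± 0.20, adjusted p = 7.72e-07), and it was 3.05-fold higher at room temperature (1.61 ± 0.20, adjusted p = 0.000784). None of the other 3 kinase genes passed in either genotype comparison. With cold, Eif2ak2, which encodes the double-stranded RNA sensor PKR, fell by 0.98 in the KO-labelled arrays (adjusted p = 0.00103) and by 0.73 in controls (adjusted p = 0.00503). Eif2b3, a subunit of the eIF2 exchange factor, rose by 0.76 in the KO-labelled arrays (adjusted p = 0.00964, but 0.143 with the array of conflicting label at 4 °C) and by 1.10 in controls (adjusted p = 0.00103).

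Of 46 measured targets of the pathway other than the members, 16 rose and 0 fell in the KO-labelled arrays at 4 °C (median 0.32), and 12 rose and 0 fell at room temperature (median 0.25). At an unadjusted p under 0.05, limma gave 8 lower at 4 °C and 0 at room temperature, and up to 3 were called lower at 4 °C under the alternatives tried. With cold, 24 rose in the KO-labelled arrays (median 0.52) and 20 in controls (median 0.47), and 0 fell in either. The background shares are those given for the members above. Muscle markers differed between genotypes as given above. With the muscle score in the model, 14 targets rose at 4 °C and 8 at room temperature by genotype, and the calls that ended at room temperature included Aldh1l2 (adjusted p = 0.0956), Slc7a1 (0.0946), Slc7a5 (0.0923) and Fgf21 (0.053). With the array of conflicting label counted at 4 °C, 7 targets rose by genotype at room temperature and 14 rose with cold in the KO-labelled arrays, while in controls no probe set was called with cold, as given above.

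Among enzymes of amino acid and one-carbon metabolism, 7 of 13 were called higher in the KO-labelled arrays at 4 °C and 6 at room temperature (median differences 0.73 and 0.47). Psat1, an enzyme of serine synthesis, read 6.31, 6.12 and 5.91 in the KO-labelled arrays and 3.20, 3.71 and 3.06 in controls at 4 °C, and 4.50, 4.57 and 4.11 in the KO-labelled arrays and 1.96, 2.44 and 2.08 in controls at room temperature. The genotypes did not overlap at either temperature (6.93-fold at 4 °C, adjusted p = 1.7e-06, and 4.69-fold at room temperature, adjusted p = 4.45e-05). Pck2, the mitochondrial form of phosphoenolpyruvate carboxykinase, differed by genotype and not by cold: 2.07 ± 0.19 at 4 °C (adjusted p = 1.92e-05) and 1.97 ± 0.19 at room temperature (adjusted p = 0.000107), against cold responses of 0.11 ± 0.19 in the KO-labelled arrays (adjusted p = 0.835) and 0.01 ± 0.19 in controls (adjusted p = 0.995). Mthfd2, a mitochondrial folate enzyme, read 7.92, 7.78 and 7.64 in the KO-labelled arrays and 6.07, 6.67 and 6.37 in controls at 4 °C, and 6.73, 6.81 and 6.71 in the KO-labelled arrays and 2.61, 3.33 and 4.13 in controls at room temperature. Its room temperature controls lay far below the other 9 arrays, as they did for Atf5. Its cold response was 1.03 ± 0.28 in the KO-labelled arrays (adjusted p = 0.0414) and 3.01 ± 0.28 in controls (adjusted p = 9.32e-05), a difference of -1.99 ± 0.40 that did not pass (adjusted p = 0.0674). The call in the KO-labelled arrays was lost without any 1 of 7 arrays, with adjusted p up to 0.132 without KO replicate 1 at 4 °C, and the genotype call at 4 °C (1.41 ± 0.28, adjusted p = 0.0107) without control replicate 1 of that temperature (0.055). That cold call of the KO-labelled arrays also ended with the muscle score in the model (0.0543) and with repeated quantile normalization (0.0547). Testing all probe sets (0.0925) and counting the array of conflicting label at 4 °C (0.304) ended it too.

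Among tRNA synthetases, which charge tRNAs with amino acids, 8 of 11 rose with cold in each genotype, while 3 rose in the KO-labelled arrays at 4 °C and 2 at room temperature. Wars and Eprs were called in both genotype comparisons, Wars at 1.43 ± 0.17 (adjusted p = 0.000151) at 4 °C and 1.49 ± 0.17 (adjusted p = 0.00031) at room temperature, Eprs at 0.80 ± 0.13 (adjusted p = 0.00295) and 1.07 ± 0.13 (adjusted p = 0.000978, but 0.0764 with the array of conflicting label at 4 °C). Of 7 amino acid transporters, 5 rose with cold in the KO-labelled arrays and 4 in controls. Slc7a1, the carrier of arginine and lysine, rose by 2.17 ± 0.24 in the KO-labelled arrays (adjusted p = 0.000208) and 2.79 ± 0.24 in controls (adjusted p = 4.66e-05). Slc7a5 was 3.61-fold higher in the KO-labelled arrays than in controls at 4 °C (1.85 ± 0.19, adjusted p = 6.86e-05).

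The remaining 15 measured targets were mixed, with 3 higher in the KO-labelled arrays at 4 °C and 2 at room temperature. Ero1a, an oxidase that drives disulfide formation in the ER and is known as a CHOP target, was 13.3-fold higher at 4 °C (3.74 ± 0.27, adjusted p = 2.53e-06) and 6.42-fold higher at room temperature (2.68 ± 0.27, adjusted p = 0.000138). Fgf21, a hormone gene induced by ATF4 and by cold, read 8.06, 8.27 and 7.86 in the KO-labelled arrays and 6.67, 6.52 and 6.35 in controls at 4 °C, and 4.40, 2.90 and 4.06 in the KO-labelled arrays and 1.57, 2.13 and 2.79 in controls at room temperature. It rose with cold by 4.27 ± 0.35 in the KO-labelled arrays (adjusted p = 3.24e-05) and 4.35 ± 0.35 in controls (adjusted p = 3.1e-05). Its genotype difference was 1.55 ± 0.35 at 4 °C (adjusted p = 0.0197) and 1.63 ± 0.35 at room temperature (adjusted p = 0.034), calls that 5 and 7 single arrays decided, with adjusted p up to 0.0816 without KO replicate 2 at 4 °C and 0.129 without KO replicate 3 at room temperature. The room temperature call also ended with the muscle score in the model (0.053), with only the 6 arrays compared (0.146) and with the array of conflicting label at 4 °C (0.52), and the last setting ended the 4 °C call too (0.102). Herpud1, an ER membrane protein of the degradation machinery, read 10.30, 10.40 and 10.28 in the KO-labelled arrays and 8.33, 8.63 and 8.93 in controls at 4 °C. At room temperature it read 9.11, 8.96 and 9.06 in the KO-labelled arrays and 8.61, 8.97 and 8.99 in controls, which overlapped. It was the 1 target whose cold response differed between genotypes, by 1.51 ± 0.21 (adjusted p = 0.0116), lost without KO replicate 2 at 4 °C (0.0534) and with the array of conflicting label at 4 °C (0.0905).

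**Figure D4:**
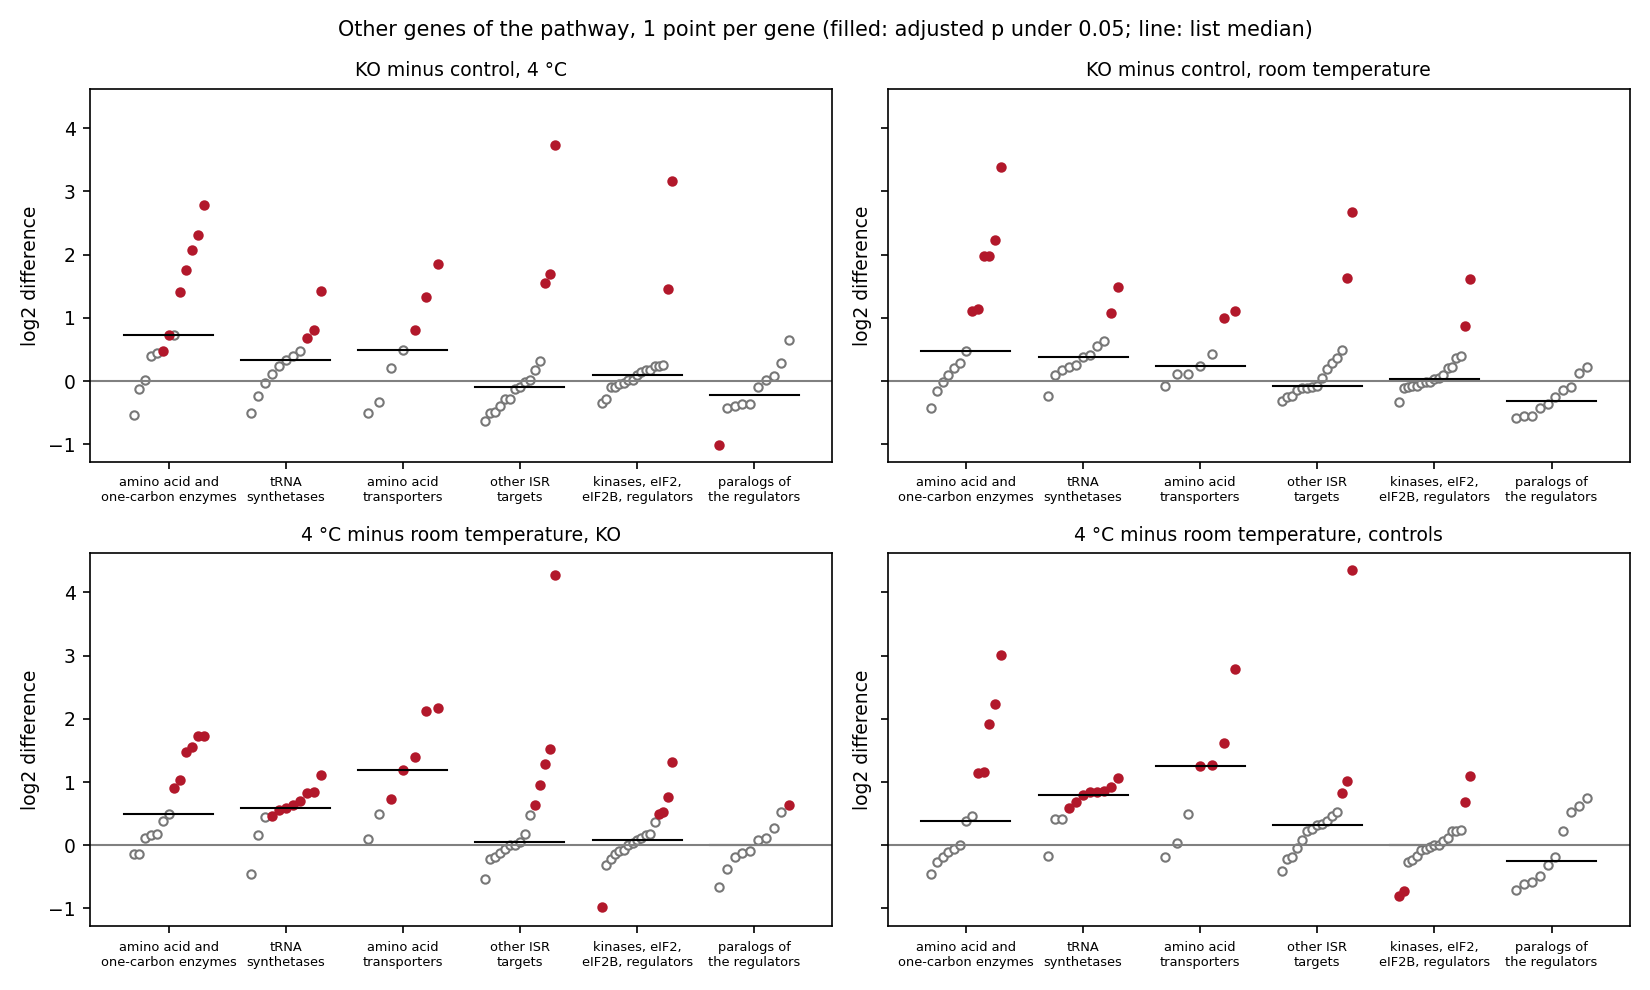
Log2 differences of the other genes of the pathway, 1 point per gene in order of size, for the 2 genotype comparisons (top) and the 2 cold responses (bottom), with the list median as a line and points filled where adjusted p was under 0.05. The amino acid enzymes hold 7 and 6 filled points in the upper panels, and the tRNA synthetases 8 in each lower panel.

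Of 10 measured paralogs of the members, 0 were called higher and 1 lower in the KO-labelled arrays at 4 °C, Trib1 (-1.01 ± 0.26, adjusted p = 0.0428), a call lost without any 1 of 7 arrays (adjusted p up to 0.149 without control replicate 2 at 4 °C). The Trib1 call also ended with the muscle score in the model (0.058) and with the replicate number as a block (0.0646). Testing all probe sets (0.0924) and counting the array of conflicting label at 4 °C (0.0945) ended it too. At room temperature limma called 0, with 0 higher and 3 lower at an unadjusted p under 0.05. Over all probe sets 5.8% were called at 4 °C and 1.72% at room temperature, so these counts lie near the background. With cold, 1 paralog was called in the KO-labelled arrays, Jdp2 (0.63, adjusted p = 0.039), lost without any 1 of 6 arrays (adjusted p up to 0.151), and 0 in controls, with 3 higher and 3 lower at an unadjusted p under 0.05. Jdp2 is already counted among the pathway targets above. Its call also ended with the array of conflicting label at 4 °C (0.0545) and with all probe sets tested (0.0815). The bZIP partners of ATF4 and CHOP, 12 genes of the C/EBP, AP-1, NRF and MAF families, had 0 calls by genotype at either temperature (at an unadjusted p under 0.05, limma gave 2 higher and 2 lower at 4 °C and 1 higher and 1 lower at room temperature) and 6 higher and 1 lower with cold in each genotype. Cebpa, a factor of adipocyte differentiation, fell by 1.67 with cold in the KO-labelled arrays (adjusted p = 0.00016, but 0.137 with the array of conflicting label at 4 °C) and by 2.54 in controls (adjusted p = 1.02e-05), and Maff rose by 2.81 in controls (adjusted p = 0.000117). ER chaperones and folding enzymes, which ATF6 and XBP1 activate largely apart from ATF4, rose in the KO-labelled arrays for 14 of 14 measured genes at 4 °C (median 2.79) and 13 of 14 at room temperature (median 1.78). With cold, 11 of them rose and 0 fell in the KO-labelled arrays (median 1.06), against 2 up and 2 down in controls (median -0.06). Beside these and the bZIP partners, 4.32% of all probe sets were called higher and 4.7% lower with cold in the KO-labelled arrays. In controls the shares were 4.85% and 6.23%. In 4 of the 14 the cold response was called larger in the KO-labelled arrays, opposite in sign to Atf3 and Atf5. For that difference 0.23% of all probe sets were called higher and 0.0765% lower. Creld2 had the largest such difference (2.05 ± 0.34, adjusted p = 0.0294), lost without any 1 of 8 arrays (adjusted p up to 0.099 without KO replicate 2 at 4 °C). The calls of Dnajc3 (1.56, adjusted p = 0.0391) and Pdia3 (0.82, adjusted p = 0.0391) were each lost without any 1 of 10 arrays, and that of Dnajb11 (1.42, adjusted p = 0.0169) without any 1 of 3. Creld2, Dnajc3 and Pdia3 also lost the call with the muscle score in the model and with the array of conflicting label at 4 °C.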

How the data were processed

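Per the labels' protocols, total RNA of snap-frozen tissue was extracted with Trizol, cleaned on columns, and labelled with biotin for whole-transcript arrays. The deposited values are log2 expression, for which RMA is the tool named per the submitters' processing notes; no version of it is stated. RMA compresses differences of dim probe sets, and raw intensities were not used here. The table held 41345 probe sets, of which 23521 carried 1 gene symbol in the platform annotation, 1814 several and 16010 none, and 0 columns were left unmapped. Array medians were 2.03 to 2.09.

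A model with a mean for each group, over 12 arrays, was fitted by limma (3.58.1, R 4.3.3; 8 residual and 4.45 prior degrees of freedom, median standard error 0.14), without a filter, and p-values were adjusted by Benjamini-Hochberg over 23521 probe sets. The procedure was tested on simulated data. Tables and promoter matches were made in Python 3.11.15. Groups came from the sample titles, which number the mice. How the mice were picked is not stated, so p-values reflect only the spread among the arrays at hand, and the number of arrays limits the precision. Where genes had several probe sets, that with the highest mean over the arrays was used.

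All 10 members are described. Of each other list, counts are given with at most 5 called genes of the largest change in a comparison, and others needed to say what did not pass; Ppp1r15b was named as the counterpart of Ppp1r15a. The members, lists and tests were chosen with earlier results of these data known, and members are counted beside the share of all probe sets called. Lists share genes, so their counts are not independent. Ppp1r15b is an upstream gene and a paralog, Jdp2 a target and a paralog, and Cebpb and Cebpg are targets and bZIP partners. Of the bZIP partners, Fos, Jun and Junb are also immediate early genes. Cebpd is also in the glucocorticoid and fasting list, and Cebpa among the brown adipocyte markers. Alternatives left out single arrays, moved the array of conflicting label to 4 °C, used only the 6 arrays compared, all probe sets or the brighter ones, another normalization, array weights, a trended robust variance, the replicate number as a block, or the muscle score as a further term.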

Additional observations from a re-analysis of the deposited data

Results flagged for a closer look

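The cold response of 2 members differed between genotypes by a test of the difference itself, the cold response of the KO-labelled arrays minus that of the controls. For Atf3 the difference was -2.36 on the log2 scale, from cold responses of 1.38 in the KO-labelled arrays and 3.73 in controls. For Atf5 it was -1.16, from 0.05 in the KO-labelled arrays and 1.21 in controls. Neither difference passed with the array of conflicting label counted at 4 °C (Atf3 -1.25, adjusted p = 0.897; Atf5 -0.83, adjusted p = 0.721), and that of Atf3 was also lost without any 1 of 9 arrays, with all probe sets tested (adjusted p = 0.119) and with the muscle score in the model (adjusted p = 0.0573). Sel1l did not differ at 4 °C beyond the spread of the arrays, so it does not check the genotype labels on which both directions rest at that temperature. The ER chaperone averages of the same arrays are given above.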

How the results depend on the processing

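Of the members' log2 changes recomputed with 1 array left out, 560 kept direction and call, 26 lost a call, 3 gained one and 11 turned in direction; under the other alternatives 460 kept both, 21 lost a call, 3 gained one and 6 turned. None of the members' values that turned had been called. Without 1 array, Chac1 ranged from -0.07 to 0.64 by genotype at room temperature and from -0.06 to 0.64 with cold in the KO-labelled arrays, and the differences in cold response ranged from -0.01 to 0.29 for Ddit3, -0.31 to 0.35 for Nupr1 and -0.10 to 0.35 for Sesn2. Repeated quantile normalization gave -0.01 for Atf5 with cold in the KO-labelled arrays and -0.07 for the Nupr1 difference in cold response, and array weights gave -0.04 for that difference. Counting the array of conflicting label at 4 °C gave 0.20 for Atf4 by genotype at 4 °C, -0.02 for Ddit3 with cold in controls, -0.02 for the Nupr1 difference in cold response and, for Nr4a3 by genotype at 4 °C, 0.10 in place of a called -0.68. It also lowered the members called to 2 higher and 0 lower by genotype at 4 °C, 2 higher by genotype at room temperature (Trib3 lost), 3 higher with cold in the KO-labelled arrays, 0 higher with cold in controls and 0 lower for the difference in cold response. The 12 pathway targets called by genotype at room temperature and the 24 called with cold in the KO-labelled arrays became 7 and 14. Members called lower for that difference in cold response numbered 1 with all probe sets tested and 1 with a muscle score term. Without 1 array, members called ranged from 2 to 4 higher and 0 to 1 lower by genotype at 4 °C, and from 1 to 2 lower for the difference in cold response. Over all probe sets, the genotype calls at room temperature numbered 404, against 177 with the array of conflicting label moved, 187 with the muscle term, 245 with the 6 arrays compared and 255 without control replicate 2 at room temperature. The calls for the difference in cold response numbered 72, against 22 with all probe sets tested, 17 with that array moved, 40 with the muscle term and 21 to 123 without 1 array. Moving that array gave 1044 cold calls in the KO-labelled arrays, against 2123, and 0 in controls, against 2606, and leaving out KO replicate 2 at 4 °C gave 842 genotype calls at 4 °C, against 1365. With the replicate number as a block, Atf3 passed at room temperature (adjusted p = 0.0192) and Trib3 at 4 °C (adjusted p = 0.031), and 47 probe sets were called for the difference in cold response. Deviations from the group means correlated at -0.18 to 0.16 between same-numbered arrays of different groups, and at -0.30 to 0.25 between differently numbered ones. The sample titles do not state what same-numbered mice share, and these values cannot settle it. Of 131 further results on named genes, 100 kept their call without any single array. The next brightest probe set could not be used, since each member has 1, and the difference in cold response needs all 4 groups. The causes of these changes were not tested.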

Other observations

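Immediate early genes and glucocorticoid- and fasting-responsive genes, which can respond to handling and feeding state, moved mostly with temperature. All groups were fasted for 5 h, and the sample titles do not describe handling. Of all probe sets, 4.32% were called higher with cold in the KO-labelled arrays and 4.85% in controls. By genotype 5.8% were called at 4 °C and 1.72% at room temperature, so the 1 immediate early call at 4 °C lies near the background. Of 18 immediate early genes, 12 rose with cold in the KO-labelled arrays (median 1.45) and 9 in controls (median 1.04), and 0 fell. By genotype, 0 rose and 1 fell at each temperature, Nr4a3, a nuclear receptor gene induced by cyclic AMP, at -0.68 at 4 °C (adjusted p = 0.0299) and -0.94 at room temperature (adjusted p = 0.0117). The 4 °C call was lost without any 1 of 4 arrays (adjusted p up to 0.121), with the replicate number as a block (0.0575) and with the muscle score in the model (0.0562). The room temperature call was lost without either of 2 arrays (adjusted p up to 0.0527) and with the muscle score in the model (0.102), and both ended with the array of conflicting label at 4 °C. Of 10 glucocorticoid- and fasting-responsive genes, 6 rose with cold in the KO-labelled arrays (median 0.74) and 5 in controls (median 0.61), and 0 fell. By genotype, limma called 0 at 4 °C (2 higher and 1 lower at an unadjusted p under 0.05), and at room temperature Mt2, a metallothionein, rose by 0.76 (adjusted p = 0.00769, but 0.316 with the array of conflicting label at 4 °C) and Tsc22d3, a glucocorticoid target, fell by 0.90 (adjusted p = 0.0469), the second lost without any 1 of 11 arrays (adjusted p up to 0.159). The Tsc22d3 call also ended with the muscle score in the model (0.202), with only the 6 arrays compared (0.147) and with array weights (0.0568). Using the replicate number as a block (0.0882), testing all probe sets (0.0945) and counting the array of conflicting label at 4 °C (0.117) ended it too.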
